A study of Homo sapiens with 24 samples.

Results

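The BCL2 family decides, at the outer mitochondrial membrane, whether a cell survives. Guardian proteins such as BCL2, BCL2L1 (which encodes BCL-XL) and MCL1 hold the pore-forming effectors BAX and BAK1 in check. BH3-only proteins sense damage or loss of survival signals and either neutralise the guardians or switch on the effectors directly, after which cytochrome c is released and caspases are activated. In the T lineage these proteins set which thymocytes die during development, and T-cell leukaemias differ in the guardian they lean on.

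The 10 genes described here were taken from the deposited table by symbol, and all 10 were among its 15862 genes. They are 3 guardians (BCL2, BCL2L1, MCL1), the effector BAX, and 6 BH3-only genes (BID, BCL2L11, BMF, BIK, PMAIP1, BBC3). RNA sequencing covered the polyadenylated RNA of 2 human leukaemia lines of the T lineage (T-ALL) in 24 libraries, made with Smart-seq2 and Nextera XT, which do not mark strand. LOUCY, which stands for the early precursor form of this leukaemia, was exposed for 24 h to 250 nM JQ1 (n = 4), to 500 nM I-BET151 (n = 4) or to 0.05% DMSO, the vehicle (n = 4), or was left untreated (n = 6). JURKAT, a line used as a model of more mature disease, was left untreated (n = 6). JQ1 and I-BET151 are BET inhibitors, which displace bromodomain proteins from acetylated histones. Each group was spread evenly over 2 independent experiments. Each line is a single line, and the labels do not say whether numbered replicates were separate cultures, so the p-values speak only of library-to-library spread, which may be technical.

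The values are the authors' RPKM (read counts scaled to gene length and to library size), which allow levels of different genes to be set side by side within a library. Libraries held 4381134 to 7074198 recovered reads in listed genes. In bulk RNA, less RNA of a gene per cell cannot be told apart from fewer cells that carry it. The T-cell genes CD3D, CD3E, CD3G, CD247, LCK and CD7 were present in both lines, while the mean of CD2 and of CD5 was under 1 RPKM in every LOUCY group. HEXIM1, a gene known to rise under BET inhibition, lay at 49.2 to 55.3 RPKM with JQ1 and 43.6 to 60.5 RPKM with I-BET151, against 18.03 to 22.8 RPKM with DMSO. Of 4 listed myeloid markers, 1 averaged 1 RPKM or more with either inhibitor and 2 did with DMSO. Their sum was 4.22 to 6.58 RPKM with JQ1 and 4.41 to 6.86 RPKM with I-BET151, against 17.9 to 23.9 RPKM with DMSO. The 5 B-cell markers summed to 242 to 336 RPKM with JQ1 and 174 to 352 RPKM with I-BET151, against 322 to 589 RPKM with DMSO, nearly all of it CD79A and CD79B, and MS4A1 and PAX5 averaged under 1 RPKM in every group. The sums of the 8 listed T-cell markers were 1028 to 1082 RPKM with JQ1 and 812 to 1171 RPKM with I-BET151, against 1568 to 1998 RPKM with DMSO. The part of these lineage genes in the results on the family was not tested.

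In 3 libraries, expression varied with gene GC content more steeply than in the other 21. The slope was -0.31 log2 units per 10 points of GC in I-BET151 experiment 2 replicate 1, -0.28 in DMSO experiment 2 replicate 1 and -0.23 in untreated LOUCY experiment 2 replicate 2, and it lay between -0.12 and 0.16 in the rest. Where omitting this trio changes a call among the 10 genes, both values are given. The calls of other genes named below were not examined without it.

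Promoter sequence from RefSeq (GRCh38.p14) was found for 8 of the 10 genes. It is shown for BMF and BCL2L11, which rose with both inhibitors, and for BCL2L1 and PMAIP1, which fell with at least 1 of them, as 200 bases that end 51 bases before the RefSeq start and hold no exon of the GENCODE 29 annotation. The BCL2L11 stretch lies inside the longer GENCODE gene, between its exons. Capitals mark matches to 4 motifs searched on both strands: the TATA box TATAAA, the E-box CACGTG, the GC box GGGCGG and the CCAAT box, and no motif contains another.
BMF, chr15:40108930-40109129, minus strand: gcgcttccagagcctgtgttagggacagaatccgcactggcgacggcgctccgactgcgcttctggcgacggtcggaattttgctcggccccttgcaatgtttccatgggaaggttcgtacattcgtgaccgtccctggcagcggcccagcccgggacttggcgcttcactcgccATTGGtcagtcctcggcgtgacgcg
BCL2L11, chr2:111120664-111120863, plus strand: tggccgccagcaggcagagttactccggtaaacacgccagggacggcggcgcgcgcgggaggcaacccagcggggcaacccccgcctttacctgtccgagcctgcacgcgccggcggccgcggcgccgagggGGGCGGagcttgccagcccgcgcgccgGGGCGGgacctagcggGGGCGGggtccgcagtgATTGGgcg
BCL2L1, chr20:31724014-31724213, minus strand: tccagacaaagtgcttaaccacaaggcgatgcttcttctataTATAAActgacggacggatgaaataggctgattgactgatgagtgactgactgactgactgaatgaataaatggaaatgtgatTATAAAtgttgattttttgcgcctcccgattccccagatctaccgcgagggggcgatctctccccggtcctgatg
PMAIP1, chr18:59899746-59899945, plus strand: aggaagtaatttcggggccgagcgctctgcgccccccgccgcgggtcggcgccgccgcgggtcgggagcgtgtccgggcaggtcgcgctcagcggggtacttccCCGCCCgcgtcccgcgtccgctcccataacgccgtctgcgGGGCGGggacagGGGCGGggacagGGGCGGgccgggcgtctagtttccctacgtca
The BMF stretch held 1 CCAAT box, read on the opposite strand as ATTGG, and the BCL2L11 stretch held 3 GC boxes and 1 CCAAT box. The BCL2L1 stretch, in the same window, held 2 TATA boxes and no GC box, and the PMAIP1 stretch held 4 GC boxes, 1 of them read as CCGCCC. Among 27305 windows of the same length, 34.7% held a GC box, 28.3% a CCAAT box, 7.79% a TATA box and 4.68% an E-box. A match is a description of these letters, not a site.

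Treatment of LOUCY with either BET inhibitor lowered the guardians BCL2 and BCL2L1 and raised the BH3-only genes BCL2L11 and BMF, while the BH3-only gene BIK fell. The BCL2L1 result with I-BET151 was lost in 7 of 20 alternative fits, given below. With JQ1, 6 of the 10 genes were past the threshold, a Benjamini-Hochberg adjusted p under 0.05 from limma on log2(RPKM + 1), with 2 higher and 4 lower. Over all 11411 genes tested, 26.0% were past it, 10.1% higher and 15.9% lower. With I-BET151, 6 of the 10 were also past it, again 2 higher and 4 lower, against 26.3% of all genes, 10.3% higher and 15.9% lower. Among these 4 was BID, a call lost in 13 of 20 alternative fits. Of the 4 lower with each inhibitor, BCL2 entered the test through DMSO and untreated libraries. Only 0 of 4 JQ1 and 1 of 4 I-BET151 libraries reached 1 RPKM for it. Both inhibitors were set against the same 4 DMSO libraries, so the comparisons are not independent, and since the inhibitors were given at different doses their values stand side by side without a test between them. With DMSO itself, set against untreated LOUCY, 0 of the 10 genes were past the threshold by limma or by limma-voom on recovered reads, and 1 had an unadjusted p under 0.05. In that comparison 0.175% of all genes were past it, 0.0263% higher and 0.149% lower. The untreated lines differed at 9 of the 10 genes, 6 higher in LOUCY and 3 lower, where 73.1% of 11978 genes differed, 35.5% higher and 37.5% lower, so this count is not far above the background. Of the 6, BMF and BBC3 entered the test only through LOUCY libraries, since 0 of 6 JURKAT libraries reached 1 RPKM for either, so their place in the count says little. The median difference over the 10 genes was -0.14 with JQ1, -0.16 with I-BET151, -0.13 with DMSO and 0.43 between the lines on the log2 scale, against -0.01, 0.00, -0.02 and -0.02 over all genes tested.

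**Figure D1:**
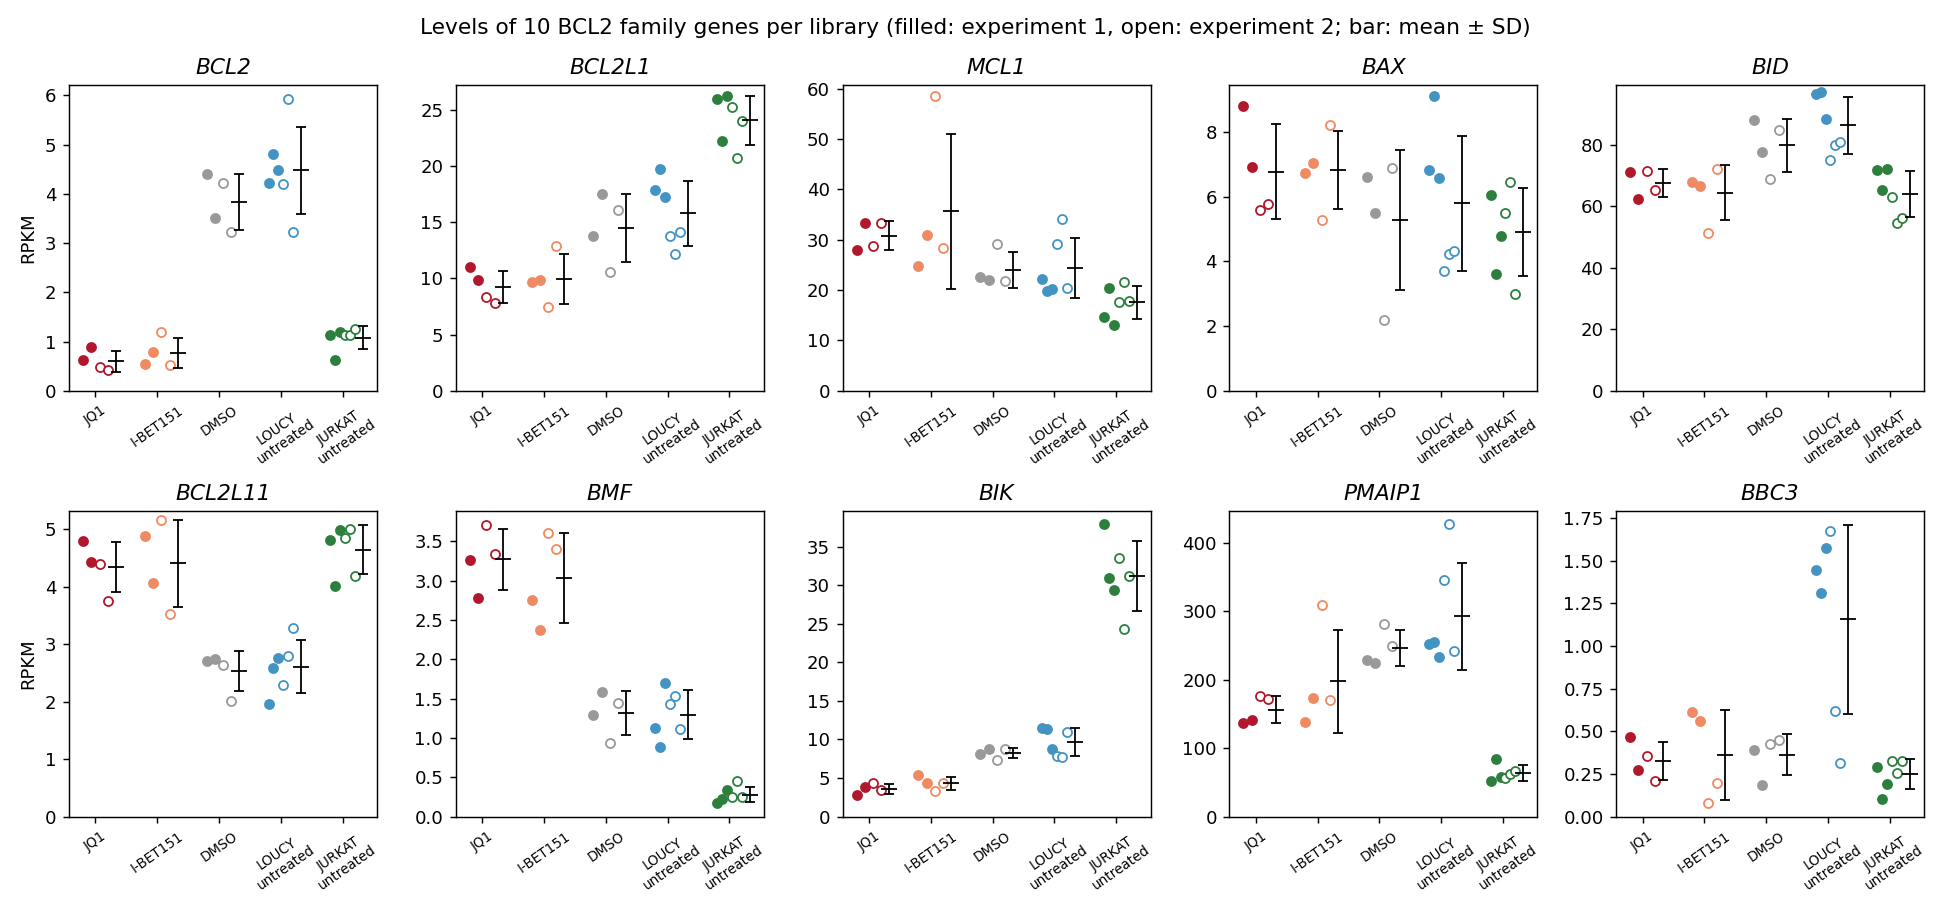
RPKM of each of the 10 genes in all 24 libraries, by group from left to right (JQ1, I-BET151 and DMSO in LOUCY, untreated LOUCY, untreated JURKAT), with filled points for experiment 1, open points for experiment 2 and the mean ± SD at the right of each group. BCL2 lies at 0.42 to 1.20 RPKM with the inhibitors, under every DMSO library, and BMF lies at 2.37 to 3.71 RPKM with them, above every DMSO library.

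BCL2, the guardian first found at the translocation of follicular lymphoma, spans bases 63123346 to 63320128 of chromosome 18 on the minus strand (GRCh38). Its level was 0.62, 0.90, 0.48 and 0.42 RPKM in the 4 JQ1 libraries and 0.55, 0.80, 1.20 and 0.53 RPKM in the 4 I-BET151 libraries, against 4.39, 3.51, 4.21 and 3.22 RPKM in the 4 DMSO libraries. Every inhibitor library lay below every DMSO library, with 13 to 31 recovered reads with JQ1 and 17 to 46 with I-BET151, against 114 to 187 with DMSO. Only 0 of 4 JQ1 and 1 of 4 I-BET151 libraries reached 1 RPKM, so the gene entered the test through DMSO and untreated LOUCY libraries. It passed with both inhibitors in all 20 alternatives, among them a fit without the filter on low values. The mean with JQ1 was 0.158 times the DMSO mean, and the difference on the log2(RPKM + 1) scale was -1.59 ± 0.16 (SE; limma adjusted p = 5.17e-07), with -1.49 in experiment 1 and -1.69 in experiment 2. With I-BET151 the mean was 0.201 times that with DMSO (-1.46 ± 0.16, limma adjusted p = 1.67e-06), with -1.56 in experiment 1 and -1.36 in experiment 2. Untreated LOUCY held 3.22 to 5.94 RPKM (median 4.35), against 0.62 to 1.26 RPKM (median 1.13) in JURKAT. The lines did not overlap, and the LOUCY mean was 4.16 times the JURKAT mean (1.39 ± 0.12 on the log2 scale, limma adjusted p = 4.78e-08). In the order of group means, the untreated and DMSO groups of LOUCY overlapped at the top, and JURKAT and the inhibitor groups overlapped at the bottom.

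BCL2L1, whose long splice form BCL-XL guards against BAX and BAK1, lies on chromosome 20 (31664452 to 31723989, minus strand). An exon overlaps one of ABALON on the opposite strand, and reads of the pair cannot be told apart here. ABALON itself was listed at means of 1.497, 0.95 and 1.67 RPKM with JQ1, I-BET151 and DMSO. BCL2L1 measured 11.02, 9.83, 8.31 and 7.83 RPKM with JQ1 and 9.65, 9.86, 7.47 and 12.9 RPKM with I-BET151, against 13.8, 17.5, 10.6 and 16.1 RPKM with DMSO. The DMSO library at 10.6 RPKM lies inside the range of both inhibitors, and the other 3 DMSO libraries lie above every inhibitor library. The mean with JQ1 was 0.639 times the DMSO mean (-0.58 ± 0.15 on the log2 scale, limma adjusted p = 0.0086; -0.53 and -0.63 in experiments 1 and 2). With I-BET151 it was 0.689 times (-0.50 ± 0.15, limma adjusted p = 0.0225; -0.62 and -0.37 in experiments 1 and 2). The I-BET151 call was lost on leaving out any of 5 of the 8 libraries compared, at limma adjusted p of 0.0651 to 0.0874. These were I-BET151 experiment 1 replicates 1 and 2 and experiment 2 replicate 1, and DMSO replicate 2 of each experiment. It was also lost with only the 2 groups compared (limma adjusted p = 0.129) and in experiment 2 alone (limma adjusted p = 0.524). All alternatives ran from 0.000954 to 0.524. Between the lines, BCL2L1 went the other way from BCL2: untreated LOUCY held 12.2 to 19.7 RPKM (median 15.7), against 20.7 to 26.3 RPKM (median 24.6) in JURKAT. Every LOUCY library lay below every JURKAT library, at a ratio of means of 0.657 (-0.59 ± 0.09, limma adjusted p = 2.64e-05).

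MCL1, a short-lived guardian that thymocytes need to survive, lies on chromosome 1 (150574551 to 150579738, minus strand), where ADAMTSL4-AS1 shares exon bases on the same strand. Its RPKM was 27.9, 33.4, 28.7 and 33.4 with JQ1 and 24.9, 31.0, 58.5 and 28.3 with I-BET151, against 22.6, 22.02, 29.2 and 21.9 with DMSO. The I-BET151 library at 58.5 and the DMSO library at 29.2 stood above the rest of their groups, and both are among the 3 libraries with a steep GC slope. The difference was 0.36 ± 0.19 with JQ1 (limma adjusted p = 0.189, 95% interval -0.04 to 0.76). With I-BET151 it was 0.48 ± 0.19 (limma adjusted p = 0.0706, 95% interval 0.08 to 0.89). Neither passed. The I-BET151 interval lies above 0, but it is not adjusted for the number of genes tested. Without the 3 libraries the JQ1 difference was 0.44 and passed (limma adjusted p = 0.00995, over alternatives 0.00995 to 0.770). In experiment 1 alone the JQ1 difference was 0.43 and also passed (limma adjusted p = 0.0244). For I-BET151 it passed when I-BET151 experiment 1 replicate 1 was left out (0.58) or experiment 2 replicate 2 (0.62), at limma adjusted p of 0.0482 and 0.023. With all libraries kept, alternatives added after seeing the data passed as well. These were limma-voom (0.52, limma-voom adjusted p = 0.0223) and removal of the GC trend (0.48, limma adjusted p = 0.0228). Adjusted p over alternatives ran from 0.0223 to 0.338. Untreated LOUCY held 19.8 to 34.2 RPKM (median 21.3), against 13.2 to 21.7 RPKM (median 17.7) in JURKAT. These ranges overlapped, and the difference of 0.44 ± 0.13 passed (limma adjusted p = 0.00595), with 0.36 in experiment 1 and 0.51 in experiment 2. In experiment 1 alone it did not pass (limma adjusted p = 0.0597, over alternatives 0.000851 to 0.0597).

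The summed RPKM of the 3 guardians lay in a narrow range of group means, and its makeup varied more. The sum averaged 40.7 ± 2.8 RPKM with JQ1, 46.4 ± 14.2 with I-BET151, 42.2 ± 1.5 with DMSO and 44.6 ± 4.9 in untreated LOUCY, against 42.7 ± 1.3 in JURKAT (SD). MCL1 made up 75.7% ± 4.0 of it with JQ1 and 75.1% ± 8.5 with I-BET151, against 56.6% ± 6.8 with DMSO. The highest MCL1 shares of the I-BET151 and DMSO groups, 87.1% and 66.4%, belong to their libraries of steep GC slope. The highest I-BET151 sum, 67.1 RPKM, belongs to the same I-BET151 library. A share also rises when the other guardians fall, and MCL1 itself passed with neither inhibitor. The BCL2 share was 1.47% ± 0.44 with JQ1 and 1.64% ± 0.28 with I-BET151, against 9.08% ± 1.36 with DMSO. In untreated LOUCY the shares were 54.0% MCL1, 36.0% BCL2L1 and 9.98% BCL2, against 40.98%, 56.5% and 2.53% in JURKAT. Per length, MCL1 exceeded BCL2L1 in all 18 LOUCY libraries, 4 of 4 with each inhibitor and with DMSO and 6 of 6 untreated, against 1 of 6 JURKAT libraries. These shares describe RNA and were not tested.

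**Figure D2:**
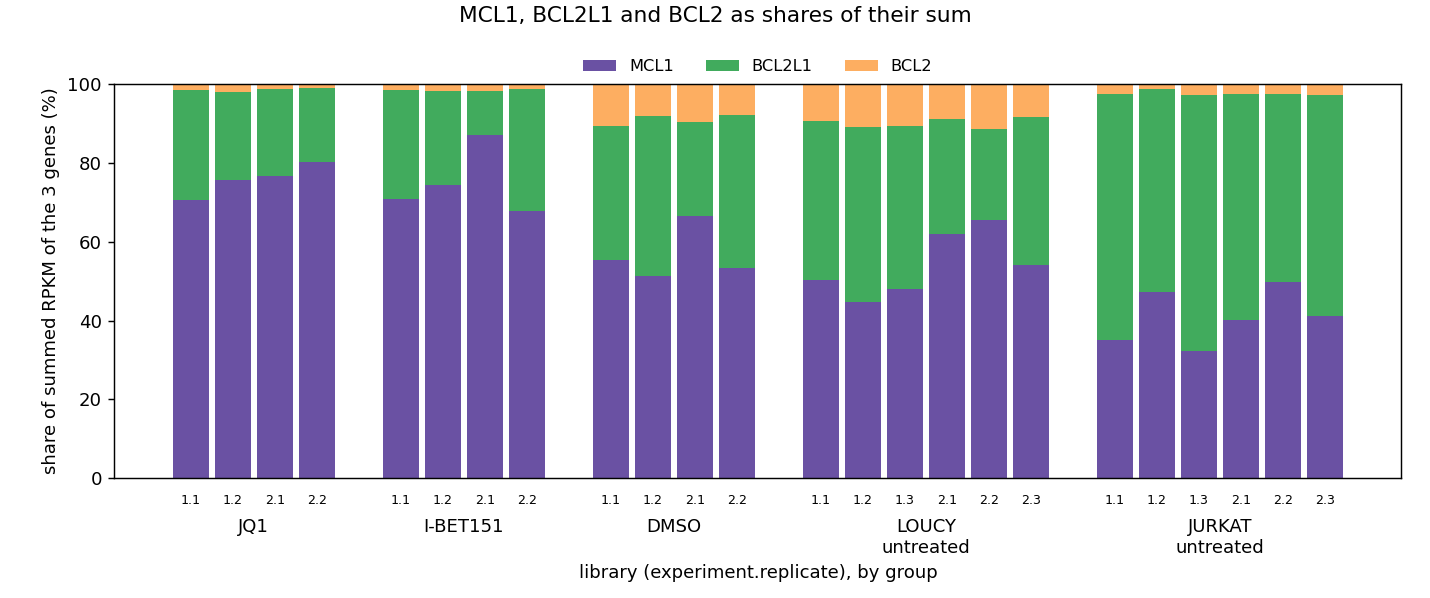
Share of MCL1, BCL2L1 and BCL2 in their summed RPKM (%), one bar per library, labelled by experiment and replicate and grouped from left to right as JQ1, I-BET151, DMSO, untreated LOUCY and untreated JURKAT. The BCL2 segment is 1.02% to 2.04% of the bar with JQ1, against 7.81% to 10.8% with DMSO, and the BCL2L1 segment is 47.6% to 64.7% in JURKAT.

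BAX, an effector that forms pores in the mitochondrial membrane, lies on chromosome 19 (48954815 to 48961798, plus strand). It measured 8.79, 6.92, 5.58 and 5.78 RPKM with JQ1 and 6.73, 7.04, 5.28 and 8.21 RPKM with I-BET151, against 6.59, 5.50, 2.17 and 6.87 RPKM with DMSO. The groups overlapped, and the lowest value belongs to the DMSO library with the steep GC slope. Differences were 0.37 ± 0.22 with JQ1 (limma adjusted p = 0.232) and 0.39 ± 0.22 with I-BET151 (limma adjusted p = 0.209). Both passed when DMSO experiment 2 replicate 2 was left out (0.60 with JQ1 and 0.62 with I-BET151, limma adjusted p = 0.0346 and 0.033), which left the 2.17 RPKM library as the only DMSO library of its experiment; alternatives ran from 0.0346 to 0.672 and from 0.033 to 0.615. Untreated LOUCY held 3.70 to 9.10 RPKM (median 5.44), against 2.999 to 6.46 RPKM (median 5.13) in JURKAT. The difference of 0.18 ± 0.18 did not pass (limma adjusted p = 0.361; 95% interval -0.19 to 0.56), and it was 0.56 in experiment 1 and -0.19 in experiment 2.

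BID, the BH3-only protein that caspase-8 cuts to link death receptors to mitochondria, lies on chromosome 22 (17734138 to 17774770, minus strand). The JQ1 libraries held 71.1, 62.4, 71.6 and 65.3 RPKM and the I-BET151 libraries 67.9, 66.5, 51.4 and 72.2 RPKM, against 88.0, 77.6, 68.9 and 84.95 RPKM with DMSO. The DMSO library at 68.9 overlapped both inhibitor groups. BID was 0.808 times the DMSO mean with I-BET151 (-0.31 ± 0.11, limma adjusted p = 0.0462), close to the threshold. This call was lost in 13 of 20 alternatives. Leaving out any of 6 of the 8 libraries lost it, at limma adjusted p of 0.054 to 0.14. The exceptions were I-BET151 experiment 2 replicate 2 and DMSO experiment 2 replicate 1. It was also lost without the filter, the variance trend or the experiment term (limma adjusted p = 0.0555, 0.0572 and 0.0738). The same held with a replicate block, with only the 2 groups compared and in experiment 2 alone (limma adjusted p = 0.0568, 0.205 and 0.476). By limma-voom it did not pass either (limma-voom adjusted p = 0.129). Alternatives ran from 0.0131 to 0.476. With JQ1 the difference of -0.23 ± 0.11 did not pass (limma adjusted p = 0.136). With the GC-sloped trio omitted it was -0.29 and passed (limma adjusted p = 0.0224, over alternatives 0.0224 to 0.8). In experiment 1 alone the JQ1 difference was -0.31 and also passed (limma adjusted p = 0.033). Untreated LOUCY held 74.95 to 97.2 RPKM (median 84.7), against 54.6 to 72.3 RPKM (median 64.2) in JURKAT. The lines did not overlap, and LOUCY was 1.35 times JURKAT (0.43 ± 0.06, limma adjusted p = 2.05e-05).

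BCL2L11 encodes BIM, a BH3-only protein that binds every guardian and is central to the deletion of self-reactive thymocytes. The gene lies on chromosome 2 (111119378 to 111168447, plus strand). Levels were 4.79, 4.42, 4.39 and 3.74 RPKM with JQ1 and 4.89, 4.06, 5.16 and 3.52 RPKM with I-BET151, against 2.704, 2.75, 2.64 and 2.01 RPKM with DMSO. All inhibitor libraries lay above all DMSO libraries. The mean with JQ1 was 1.72 times the DMSO mean (0.60 ± 0.13, limma adjusted p = 0.00283; 0.59 in experiment 1 and 0.61 in experiment 2), and with I-BET151 it was 1.74 times (0.61 ± 0.13, limma adjusted p = 0.00249; 0.55 in experiment 1 and 0.67 in experiment 2). An exon is shared with MIR4435-2HG on the opposite strand, which averaged 4.92 RPKM with JQ1 and 5.11 with I-BET151, against 7.27 with DMSO, the other direction from BCL2L11; reads of the pair cannot be told apart. Untreated LOUCY held 1.95 to 3.28 RPKM (median 2.67), against 4.01 to 4.99 RPKM (median 4.83) in JURKAT. Here LOUCY was lower without overlap, at 0.562 times the JURKAT mean (-0.65 ± 0.10, limma adjusted p = 2.65e-05), and in the order of means the inhibitor-treated LOUCY groups overlapped JURKAT.

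BMF, a BH3-only protein known to be tethered to the cytoskeleton through dynein light chain, lies on chromosome 15 (40087890 to 40108892, minus strand), where BMF-AS1 shares exon bases on the opposite strand. It was read at 3.26, 2.77, 3.71 and 3.34 RPKM with JQ1 and 2.76, 2.37, 3.61 and 3.41 RPKM with I-BET151, against 1.29, 1.58, 0.94 and 1.45 RPKM with DMSO. No inhibitor library overlapped the DMSO libraries. The mean was 2.49 times that with DMSO under JQ1 (0.89 ± 0.14, limma adjusted p = 9.15e-05; 0.72 in experiment 1 and 1.05 in experiment 2) and 2.31 times under I-BET151 (0.80 ± 0.14, limma adjusted p = 0.000271; 0.55 in experiment 1 and 1.05 in experiment 2). In experiment 1 alone the I-BET151 call was lost (limma adjusted p = 0.0564, over alternatives 0.000202 to 0.0564). Untreated LOUCY held 0.88 to 1.70 RPKM (median 1.28), against 0.17 to 0.45 RPKM (median 0.25, 4 to 12 reads) in JURKAT. LOUCY was 4.63 times JURKAT without overlap (0.84 ± 0.10, limma adjusted p = 2.03e-06), but the gene was tested only because 5 of 6 LOUCY libraries reached 1 RPKM, where 0 of 6 JURKAT libraries did. Between the lines BMF and BCL2L11 thus differed in opposite directions.

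BIK, a BH3-only protein of the endoplasmic reticulum membrane, lies on chromosome 22 (43110748 to 43129712, plus strand) and overlaps no annotated gene. Its RPKM was 2.86, 3.83, 4.31 and 3.39 with JQ1 and 5.37, 4.31, 3.25 and 4.32 with I-BET151, against 8.17, 8.75, 7.36 and 8.82 with DMSO. Every inhibitor library lay below every DMSO library, on 14 to 22 reads with JQ1 and 18 to 28 with I-BET151, against 38 to 47 with DMSO. The mean with JQ1 was 0.435 times that with DMSO (-1.02 ± 0.15, limma adjusted p = 4.65e-05; -1.13 in experiment 1 and -0.91 in experiment 2), and 0.522 times with I-BET151 (-0.81 ± 0.15, limma adjusted p = 0.000456; -0.70 in experiment 1 and -0.93 in experiment 2). Untreated LOUCY held 7.67 to 11.5 RPKM (median 9.85), against 24.3 to 37.9 RPKM (median 31.1) in JURKAT. The LOUCY mean was 0.31 times the JURKAT mean (-1.60 ± 0.11, limma adjusted p = 4.54e-09), with no overlap.

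PMAIP1 encodes NOXA, a BH3-only protein that binds MCL1 and helps to send it for degradation; the gene lies on chromosome 18 (59899948 to 59904306, plus strand). It was the most abundant of the 10 per length in every LOUCY library. It reached 138, 141, 176 and 171 RPKM with JQ1 and 138, 173, 309 and 170 RPKM with I-BET151, against 229, 225, 282 and 250 RPKM with DMSO. Every JQ1 library lay below every DMSO library, while the I-BET151 library of steep GC slope, at 309 RPKM, lay above all of them. JQ1 lowered PMAIP1 to 0.634 times the DMSO mean (-0.66 ± 0.17, limma adjusted p = 0.00658; -0.70 in experiment 1 and -0.61 in experiment 2). The I-BET151 difference of -0.38 ± 0.17 did not pass (limma adjusted p = 0.104), and without that 1 library it was -0.56 and passed (limma adjusted p = 0.00682). Without all 3 libraries of steep GC slope it was -0.55 and passed (limma adjusted p = 0.00147, over alternatives 0.00147 to 0.779). It also passed in experiment 1 alone (-0.55, limma adjusted p = 0.0032) and with the GC trend removed (-0.38, limma adjusted p = 0.0112). In experiment 2 the difference was -0.21. Untreated LOUCY held 233 to 428 RPKM (median 254), against 51.6 to 84.7 RPKM (median 60.3) in JURKAT. LOUCY was 4.62 times JURKAT without overlap (2.17 ± 0.14, limma adjusted p = 2.13e-09). Per length, PMAIP1 exceeded BID in all 18 LOUCY libraries, against 3 of 6 JURKAT libraries.

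BBC3 encodes PUMA, a BH3-only protein that binds every guardian, and lies on chromosome 19 (47220822 to 47232766, minus strand), where MIR3190 and MIR3191 share exon bases. It was barely detected, with 1 to 21 recovered reads per library. Levels were 0.46, 0.27, 0.36 and 0.21 RPKM with JQ1 and 0.61, 0.56, 0.08 and 0.20 RPKM with I-BET151, against 0.39, 0.19, 0.43 and 0.45 RPKM with DMSO. These overlapped throughout, with differences of -0.04 ± 0.18 and -0.02 ± 0.18, and at this depth no change was detectable (95% intervals -0.42 to 0.34 and -0.40 to 0.37). Untreated LOUCY held 0.32 to 1.67 RPKM (median 1.38), against 0.10 to 0.33 RPKM (median 0.27) in JURKAT. The lowest LOUCY library overlapped JURKAT. The line difference of 0.74 ± 0.15 passed (limma adjusted p = 0.000478), but the gene entered the test only through the 4 untreated LOUCY libraries at 1 RPKM or more, and it left the test when any of those 4 was omitted. The ranges of untreated LOUCY and DMSO overlapped as well. The means were 0.36 RPKM with DMSO and 1.16 RPKM untreated, a difference of -0.62 ± 0.17 that did not pass (limma adjusted p = 0.15).

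**Figure D3:**
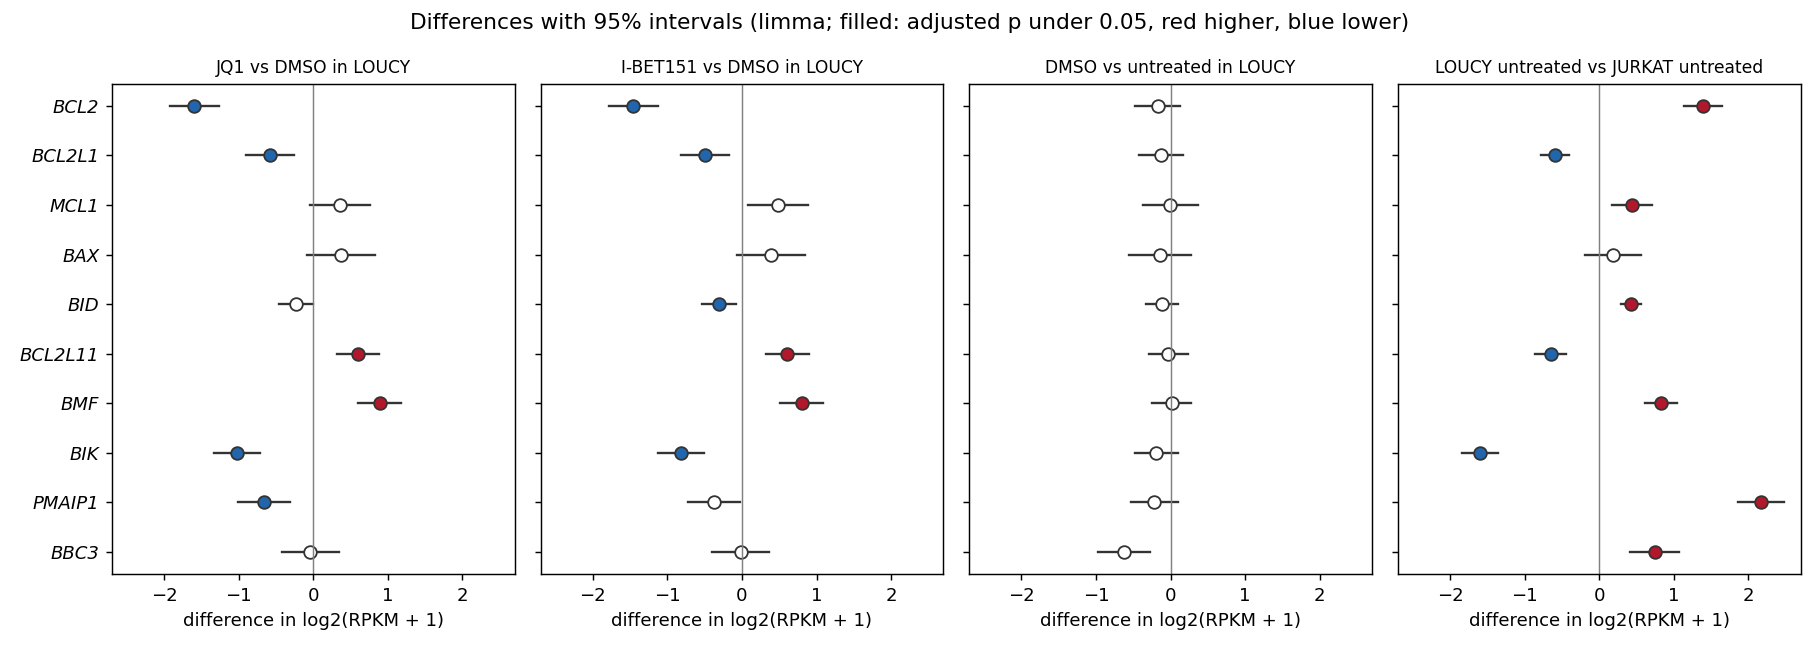
Differences in log2(RPKM + 1) with 95% intervals for the 10 genes in 4 comparisons, each as the first-named group minus the second, with filled points at a limma adjusted p under 0.05 (red higher, blue lower). BCL2, at -1.59 with JQ1 and -1.46 with I-BET151, lies farthest from 0 in both inhibitor panels, and no point is filled for DMSO against untreated cells.

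For the other 9 genes, DMSO and untreated LOUCY differed by -0.22 (PMAIP1) to 0.01 (BMF) on the log2 scale, with every limma adjusted p at 0.722 or above. No gene of the family passed limma's interaction test for a different response between the experiments (lowest adjusted p = 0.549, for BAX between the lines). Over all genes, 1 of 11411 passed in each LOUCY comparison and 3 of 11978 between the lines. With 2 to 3 libraries per group and experiment the test can detect little, so it does not show that the experiments agreed.

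In the 3 libraries with steep GC slopes, several members stood at the edge of their group. MCL1 (transcript GC 45.1%) and PMAIP1 (37.2%) were the highest of their group in all 3, and BCL2L1 (56.9%) and BIK (56.0%) were the lowest of theirs in all 3. PMAIP1 read 309 RPKM in the I-BET151 library against 138 to 173 RPKM in its group, 282 in the DMSO library against 225 to 250, and 428 in the untreated library against 233 to 347. MCL1 read 58.5 RPKM in the I-BET151 library against 24.9 to 31.0 in its group. The direction of BCL2, BMF and BCL2L11 in both inhibitor comparisons was kept, and all passed, without the 3 libraries.

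**Figure D4:**
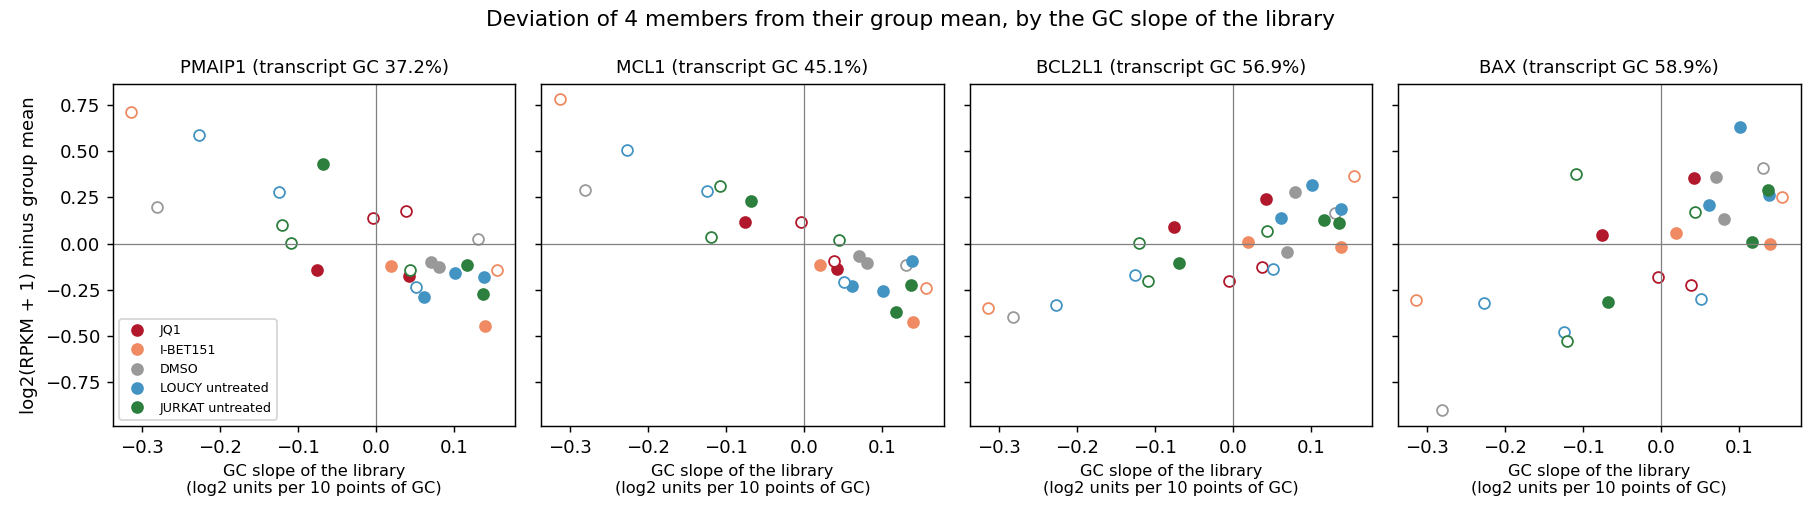
Deviation of PMAIP1, MCL1, BCL2L1 and BAX from their group mean in log2(RPKM + 1), for each of the 24 libraries, against the slope of expression on gene GC content in that library (log2 units per 10 points of GC; filled points experiment 1, open points experiment 2). In the 3 libraries at slopes of -0.31, -0.28 and -0.23, PMAIP1 and MCL1 lie above 0 and BCL2L1 and BAX lie below it.

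Genes around the 10 were counted from lists for their neighbours in the pathway. Their counts stand beside 26.0% of all genes past the threshold with JQ1, 26.3% with I-BET151 and 73.1% between the lines, as given above, and nothing is read from a count near these shares. Of the genes named below, BCL2L2, CFLAR and MYCN stayed under 1 RPKM in every JURKAT library. BNIP3, BOK, XAF1 and MYC did so in every untreated LOUCY library. These genes entered the test between the lines only through the other line, so their place in the counts says little. Likewise, BCL2A1 stayed under 1 RPKM in every I-BET151 library and entered that test through other LOUCY groups. Of the other BCL2 family and BH3 genes, 14 of 17 were in the table. With JQ1, 3 of 10 tested were higher and 0 lower (median 0.21 against -0.01 for all genes), among them MOAP1, a BAX-binding adaptor, at 19.8 ± 1.7 RPKM against 14.8 ± 0.8 with DMSO, and BCL2L12 at 14.3 ± 1.9 against 8.695 ± 3.72. BCL2L12 with I-BET151, at 12.8 ± 3.7 RPKM, did not pass. With I-BET151, 2 of 10 were higher and 1 lower (median 0.15 against 0.00). These were MOAP1, at 19.0 ± 0.9 RPKM against 14.8 ± 0.8, BNIP3L, a mitophagy receptor, at 189 ± 72 against 114 ± 27, and the guardian BCL2A1 at 0.15 ± 0.10 against 0.91 ± 0.45. With JQ1, BNIP3L passed at 158 ± 7 RPKM and BCL2A1, at 0.41 ± 0.40 RPKM, did not. Between the lines 2 of 12 were higher in LOUCY and 7 lower (median -0.25 against -0.02). The mitophagy receptors BNIP3L and BNIP3 went opposite ways, BNIP3L at 141 ± 23 RPKM in LOUCY against 45.8 ± 8.2 in JURKAT and BNIP3 at 0.48 ± 0.23 against 29.7 ± 2.7. The guardian BCL2L2 was at 1.98 ± 0.39 RPKM in LOUCY against 0.10 ± 0.08 in JURKAT, and BOK, a BAX-like protein, at 0.10 ± 0.08 against 1.73 ± 0.49.

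Downstream of the mitochondria, 10 apoptosome and caspase genes were tested. With JQ1, 2 were higher and 2 lower (median 0.01 against -0.01), and with I-BET151 2 were higher and 1 lower (median 0.09 against 0.00). APAF1, the scaffold of the apoptosome, was higher with both, at 3.79 ± 0.83 RPKM with JQ1 and 3.89 ± 0.77 with I-BET151, against 2.53 ± 0.12 with DMSO. DFFB, the nuclease that cuts DNA in dying cells, was lower with both, at 2.504 ± 0.64 RPKM with JQ1 and 1.82 ± 0.20 with I-BET151, against 4.34 ± 1.14 with DMSO. AIFM1 passed as lower with JQ1, at 24.1 ± 2.3 RPKM, and did not pass with I-BET151, at 27.0 ± 4.6 RPKM, against 30.1 ± 2.8 with DMSO. Between the lines 6 were higher in LOUCY and 3 lower (median 0.55 against -0.02), where 73.1% of all genes passed. CASP6 was at 60.8 ± 5.7 RPKM in LOUCY against 33.1 ± 2.9 in JURKAT. DFFB was lower, at 4.24 ± 1.19 RPKM in LOUCY against 9.70 ± 1.70 in JURKAT, and so was AIFM1, at 30.8 ± 3.6 against 52.1 ± 7.4.

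Of the inhibitors of apoptosis and their antagonists, 7 were tested under treatment. With JQ1, 0 passed by limma or limma-voom, and 3 had an unadjusted p under 0.05 (median -0.07 against -0.01). With I-BET151 only HTRA2, a mitochondrial protease that antagonises the inhibitors, passed, at 4.96 ± 1.61 RPKM against 8.32 ± 1.92 with DMSO (list median 0.13 against 0.00). It stood at 5.78 ± 1.09 RPKM with JQ1. Between the lines 2 of 8 were higher in LOUCY and 3 lower (median 0.05 against -0.02). BIRC6 was at 7.18 ± 0.42 RPKM in LOUCY against 2.08 ± 0.24 in JURKAT, and BIRC3 at 5.26 ± 2.30 against 3.40 ± 0.80. XAF1, an antagonist of XIAP, was at 0.10 ± 0.11 RPKM in LOUCY against 22.1 ± 2.5 in JURKAT, and HTRA2 at 8.57 ± 1.70 against 15.01 ± 1.96.

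In the death receptor arm that ends in BID, 3 of 13 genes were higher and 2 lower with JQ1 (median 0.03 against -0.01), and 3 were higher and 3 lower with I-BET151 (median 0.06 against 0.00). TNFRSF10D, a decoy receptor for the ligand TRAIL, was at 4.31 ± 0.93 RPKM with JQ1 and 4.05 ± 0.88 with I-BET151, against 1.401 ± 0.46 with DMSO. TNFRSF10B, a TRAIL receptor that signals death, was also higher with both, at 7.71 ± 1.06 RPKM with JQ1 and 7.495 ± 1.41 with I-BET151, against 4.75 ± 0.34. These receptors were also the pair that passed in DMSO against untreated cells, both lower by limma and neither by limma-voom, with TNFRSF10B at 4.75 RPKM with DMSO against 7.98 untreated and TNFRSF10D at 1.401 against 2.94. FAS was lower at 3.82 ± 0.96 RPKM with JQ1 and 4.22 ± 1.11 with I-BET151, against 7.94 ± 3.92 with DMSO, and TNFRSF1A, the TNF receptor, was lower at 16.4 ± 1.1 RPKM with JQ1 and 14.1 ± 3.4 with I-BET151, against 24.5 ± 5.0. The adaptor TRADD was higher, at 12.4 ± 1.5 RPKM with JQ1 and 13.3 ± 3.1 with I-BET151, against 7.75 ± 1.11. CASP10 passed as lower with I-BET151, at 8.67 ± 1.56 RPKM, and did not pass with JQ1, at 10.1 ± 0.8, against 11.7 ± 0.9 with DMSO. Between the lines 7 of 12 were higher in LOUCY and 4 lower (median 0.72 against -0.02), where 35.5% of all genes were higher and 37.5% lower. The initiator caspase CASP10 was at 11.9 ± 1.3 RPKM in LOUCY against 1.35 ± 0.14 in JURKAT and its inhibitor CFLAR at 3.89 ± 0.55 against 0.59 ± 0.10. FAS was at 11.5 ± 2.5 RPKM in LOUCY against 22.4 ± 6.6 in JURKAT, and TRADD at 7.72 ± 1.25 against 11 ± 1.44.

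Of 17 tested regulators of the family's RNA or protein, 5 were higher and 5 lower with JQ1 (median 0.04 against -0.01), and 5 were higher and 6 lower with I-BET151 (median -0.07 against 0.00). PIM1, a kinase that phosphorylates BAD, was at 27.3 ± 2.6 RPKM with JQ1 and 22.2 ± 3.0 with I-BET151, against 13.2 ± 3.7 with DMSO. FOXO1, of the FOXO factors that can switch on BCL2L11, was at 2.42 ± 0.19 and 2.64 ± 0.47 RPKM, against 1.55 ± 0.23. MYCN was lower, at 3.19 ± 1.39 RPKM with JQ1 and 3.97 ± 0.43 with I-BET151, against 12.4 ± 1.4, and so was TRIB3, at 3.56 ± 1.14 and 4.22 ± 1.19 against 10.3 ± 1.7. Between the lines 9 of 18 were higher in LOUCY and 4 lower (median 0.35 against -0.02). MYCN was at 11.5 ± 2.1 RPKM in LOUCY against 0.36 ± 0.11 in JURKAT. MYC was at 0.08 ± 0.06 RPKM in LOUCY against 185 ± 25 in JURKAT and ATF4 at 85.96 ± 18.2 against 218 ± 27. With DMSO against untreated LOUCY, 0 genes passed in the lists of other family members, apoptosome and caspases, inhibitors of apoptosis and regulators, by limma or by limma-voom, with 1, 0, 2 and 3 of them at an unadjusted p under 0.05. The list medians there were -0.14, 0.02, -0.00 and 0.00, and -0.10 for the death receptor arm, against -0.02 for all genes.

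Among 7512 genes with at least 5 RPKM in their highest group, those whose pattern over the 24 libraries was nearest to BCL2 were TPM4, CMPK2 and AIG1, with root-mean-square differences of 0.24, 0.25 and 0.28 in log2(RPKM + 1) centred on each gene's mean. The nearest to BCL2L1 were STOML2 (0.15), MRPS18B (0.16) and CUEDC2 (0.16), to BCL2L11 SPICE1 (0.17), ATP1B3 (0.17) and ZNF18 (0.18), to BMF PCTP (0.17), STAT2 (0.19) and RAP2B (0.21), and to BIK MRPL24 (0.20), ZNF32 (0.21) and NDUFB10 (0.23). TPM4, for instance, averaged 113 RPKM with JQ1 and 132 with I-BET151, against 295 with DMSO, and 313 in untreated LOUCY against 114 in JURKAT. These are descriptions over libraries that share groups and experiments.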

How the data were processed

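Polyadenylated RNA of 24 LOUCY and JURKAT libraries was measured, and the deposited table holds RPKM computed by the authors. The submitters' processing notes name STAR 2.5.1b, Subread 1.4.5-p1, featureCounts and edgeR 3.10.5 with build hg38; the sources used here give neither settings nor strand handling. RPKM steps gave whole reads for 100% of genes within 0.01 reads, and these gave the read totals, which cover listed genes only. Values were analysed as log2(RPKM + 1), which understates changes of low genes, for genes reaching 1 RPKM in 4 or more of the fitted libraries. limma 3.58.1 in R 4.3.3 fitted group plus experiment, with a mean-variance trend, a two-sided moderated test and Benjamini-Hochberg adjustment over all genes kept, in the 12 untreated libraries for the lines and in the 18 LOUCY libraries for the rest; this was tested on simulated data. The 10 genes were always named, and at most 2 genes per list and direction, by smallest adjusted p; some genes of these lists are not reported here. The genes and lists were chosen with earlier results of these data known. Coordinates are GENCODE 29 (GRCh38). Alternatives covered the pseudocount, filter, scaling, experiment, samples, variance model, GC content, single libraries and a replicate block. The 18 pairs of replicates within an experiment differed by more than counting error (chi-square per degree of freedom 1.69 to 54.6), so each library was counted once.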

Additional observations from a re-analysis of the deposited data

Results flagged for a closer look

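In 50 combinations of gene and group with 4 to 6 libraries, 3 held a library far from the others of its group, and chance gives such a gap in about 1 of 20 groups. BCL2 was 0.617 RPKM in untreated JURKAT experiment 1 replicate 2, where the other 5 libraries lay at 1.13 to 1.26 RPKM. MCL1 was 29.2 RPKM in DMSO experiment 2 replicate 1, a library with a steep GC slope, where the other 3 lay at 21.9 to 22.6 RPKM. BCL2L11 was 2.01 RPKM in DMSO experiment 2 replicate 2, where the other 3 lay at 2.64 to 2.75 RPKM.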

How the results depend on the processing

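Of 40 combinations of gene and comparison, 21 passed. Of these, 11 passed under every alternative in which the gene was tested, and 0 of the 21 changed direction. The 11 include BBC3 and BMF between the lines, which were tested in only 18 and 22 alternatives, where BCL2 was tested in 24. In experiment 2 alone, with 2 libraries a group, fewer of the 10 genes passed. The count fell from 6 to 2 with JQ1 and from 6 to 2 with I-BET151 (BCL2 and BMF in each). Experiment 1 alone had the same number of libraries a group. There, no call with JQ1 was lost, and MCL1 and BID passed as well (limma adjusted p = 0.0244 and 0.033). With I-BET151 in experiment 1, BMF was lost and PMAIP1 passed (limma adjusted p = 0.0564 and 0.0032). The cause of this difference between the experiments was not tested. With a replicate block (experiment and replicate number) the counts were 9 between the lines, 6 with JQ1, 5 with I-BET151, where BID did not pass (limma adjusted p = 0.0568), and 0 with DMSO; correlations of same-numbered libraries ran from -0.54 to 0.21, except 0.68 for I-BET151 and DMSO in experiment 2, where both replicate 1 libraries have a steep GC slope. Since not every pair was over 0.1, the numbers were not taken to pair the samples. Values that changed sign were all uncalled, and the cause was not tested. BAX between the lines was -0.19 in experiment 2 alone. Without the 3 libraries of steep GC slope, BBC3 was 0.018 with JQ1 and 0.11 with I-BET151, and with DMSO MCL1 was 0.0094 and BAX 0.073. With DMSO, MCL1 was also 0.0091 after trimmed-mean rescaling, 0.10 in experiment 1 alone and 0.036 with limma-voom, an alternative added after seeing the data, as was removing the GC trend. BCL2L11 with DMSO was 0.13 in experiment 1 alone, 0.052 with the replicate block and 0.0088 with limma-voom, and BMF was -0.11 in experiment 2 alone. Leaving out each library in turn gave 8 to 9 genes past the threshold between the lines, 6 to 7 with JQ1, 4 to 7 with I-BET151 and 0 with DMSO. It moved BBC3 between -0.15 and 0.037 with JQ1 and between -0.13 and 0.060 with I-BET151. With DMSO it moved MCL1 between -0.077 and 0.092, BCL2L11 between -0.093 and 0.044, BMF between -0.066 and 0.12, and BAX between -0.37 and 0.10. The planned edgeR test on recovered reads was not run, and limma-voom took its place. Genes at few reads (BBC3, BIK, BMF in JURKAT) are measured least precisely.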
